A study of Mus musculus with 32 samples.

Results

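The genes of heme synthesis and breakdown on these arrays were 9 enzymes of 9 listed, namely Alas1, Alas2, Alad, Uros, Urod, Cpox, Ppox, Fech and Hmox1. Each was read from a probe set whose only gene symbol in the platform's annotation was that gene, and each had 1 such probe set among the 35556 of the array. The study took blood and cerebellum from the same mice and hybridized the RNA of each to its own Affymetrix Mouse Gene ST array, 32 in all. The Fmr1 experiment compared 5 Fmr1-KO mice, which carry a knockout of the fragile X gene, with 5 WT mice, all congenic on C57BL/6. The Tsc2 experiment compared 3 Tsc2+/- mice, heterozygous for the loss of a tuberous sclerosis gene, with 3 WT mice on a mixed 129/SvJae and C57BL/6J background. Loss of both Tsc2 alleles is lethal to the embryo, so the heterozygote keeps 1 working copy. All mice were young adults. The labels call them female and the methods male, and the Y-linked Eif2s3y, Kdm5d and Uty read above the highest array median of olfactory receptor genes in each tissue, while Xist never did.

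Heme is made from glycine and succinyl-CoA by a chain of enzymes that starts and ends in the mitochondrion. The first step, which sets the rate, is done by Alas1 in most cells and by Alas2, encoded on the X chromosome, in the red cell lineage, where heme goes into hemoglobin. Alad then joins pairs of aminolevulinate into porphobilinogen, Uros closes the ring, Urod, Cpox and Ppox trim and oxidize it, and Fech inserts iron. Hmox1, the inducible heme oxygenase, opens the ring and frees iron, carbon monoxide and biliverdin.

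Stretches of 250 bases before the start sites of 7 members were searched on both strands for 3 short motifs. Those of Alad, Uros and Ppox are not printed, and those of 4 members are shown as examples. They are read 5′ to 3′ on the strand of the gene, and come from RefSeq on GRCm38.p6. Capitals mark the matches. GATAA, the core bound by GATA factors, reads TTATC on the other strand. CACCC, the core of Krüppel-like factor sites such as those of Klf1, reads GGGTG on the other strand. CACGTG is the E-box, which reads the same on both strands. The windows are Alas2 at chrX:150547167-150547416 (+), the second listed start site of Alas1 at chr9:106247731-106247980 (-), Urod at chr4:116994414-116994663 (-) and Cpox at chr16:58669958-58670207 (+).
Alas2: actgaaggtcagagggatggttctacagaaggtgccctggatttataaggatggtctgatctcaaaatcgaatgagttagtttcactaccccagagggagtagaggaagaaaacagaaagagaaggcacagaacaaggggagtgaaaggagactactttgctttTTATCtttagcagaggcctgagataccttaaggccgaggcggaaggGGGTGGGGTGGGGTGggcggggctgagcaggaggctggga
Alas1: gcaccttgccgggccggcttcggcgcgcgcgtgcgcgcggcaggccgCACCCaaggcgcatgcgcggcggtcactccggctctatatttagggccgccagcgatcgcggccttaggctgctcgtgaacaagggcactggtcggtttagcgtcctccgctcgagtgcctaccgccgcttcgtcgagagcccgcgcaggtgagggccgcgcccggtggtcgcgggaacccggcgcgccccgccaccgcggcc
Urod: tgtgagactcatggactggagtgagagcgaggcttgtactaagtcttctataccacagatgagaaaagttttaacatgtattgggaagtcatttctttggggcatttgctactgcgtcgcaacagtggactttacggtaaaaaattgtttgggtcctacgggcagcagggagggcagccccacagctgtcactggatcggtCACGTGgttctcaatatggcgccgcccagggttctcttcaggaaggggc
Cpox: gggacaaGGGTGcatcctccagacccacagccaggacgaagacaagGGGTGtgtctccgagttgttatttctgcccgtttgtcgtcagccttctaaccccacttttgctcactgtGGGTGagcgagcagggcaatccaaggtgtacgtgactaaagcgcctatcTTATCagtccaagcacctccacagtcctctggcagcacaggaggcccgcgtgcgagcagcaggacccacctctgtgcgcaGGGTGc

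Of 32851 promoter windows of the same length in the table, 22.6% held GATAA, 52% CACCC and 6.02% CACGTG. Among the 7 members searched, GATAA was in 3, CACCC in 4 and CACGTG in 3. The Alas2 window held GATAA on the reverse strand, 86 bases before the start, and CACCC as 3 adjoining reverse-strand matches nearer to it. In the Alas1 window GATAA was not among these letters and CACCC was matched once. The Urod window held CACGTG but neither GATAA nor CACCC, and the Cpox window held GATAA and 4 matches to CACCC. Members with a second start site had more than 1 window in which a match could fall, so their counts cannot be set against the shares of all windows, and a match is a description of letters only.

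The deposited values are linear intensities after quantile normalization over all arrays. The median of an array lay between 134.2 and 185.6 in blood and between 180.9 and 257.2 in cerebellum, and the highest of these came from Fmr1-KO cerebellum replicate 1, which correlated less with its group than any other cerebellum array (mean r of 0.86). Of the targeted genes, Fmr1 was the 1 probe set called over both tissues in the Fmr1 experiment. Its intensity was 169 to 263 in Fmr1-KO blood, against 335 to 660 in WT blood, and 142 to 306 in Fmr1-KO cerebellum, against 832 to 917 in WT cerebellum. Tsc2 intensity was 713 to 1000 in Tsc2+/- cerebellum, against 1110 to 1180 in WT cerebellum, a difference of -0.48 that did not pass the test (limma adjusted p = 0.926), while in blood the groups overlapped. The summed intensity of 10 red cell markers was 24300 to 60700 in blood, against 2140 to 3450 in cerebellum, and that of 7 cerebellar markers was 239 to 1200 in blood, against 32900 to 42100 in cerebellum. Sptb, the brightest of the red cell markers in cerebellum, read 881 to 2540 there, against 1590 to 3450 in blood. In whole tissue, fewer cells of a type and less RNA per cell cannot be told apart.

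Alas2 had the largest tissue difference of the 9 enzymes in both experiments. Its intensity was 17250, 18820, 17940, 18580 and 19250 in Fmr1-KO blood and 17500, 17440, 18270, 18820 and 17920 in WT blood of that experiment. It was 18070, 17340 and 17500 in Tsc2+/- blood and 18380, 18780 and 16190 in WT blood. In cerebellum the same probe set read 205.3, 186.6, 202.1, 210.0 and 301.9 in Fmr1-KO mice and 161.3, 187.1, 228.2, 222.9 and 163.7 in WT mice. All 16 blood arrays thus lay above all 16 cerebellum arrays, with a 1.19-fold spread over the blood arrays. Tsc2+/- cerebellum gave 193.2, 156.4 and 143.0, against 214.4, 226.4 and 243.2 in WT cerebellum. On the log2 scale blood exceeded cerebellum by 6.48 (SE 0.09, 89.2-fold, limma adjusted p = 5.2e-21) in the Fmr1 experiment and by 6.52 (SE 0.12, 91.9-fold, adjusted p = 7.22e-12) in the Tsc2 experiment. In each blood array Alas2 ranked between 17 and 50 of all probe sets by intensity, a place that also depends on how brightly its probes hybridize. The 171 probe sets with a median blood intensity over 10000 had a median SD within groups of 0.103 on the log2 scale, against 0.365 over all probe sets, and Alas2 and Fech, with 0.066 and 0.126, lay in that narrow range. Whether such bright signals still follow the amount of RNA was not tested.

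Alas1, the form used in most cells, did not share this division. Its intensity was 719.7, 499.7, 588.1, 610.1 and 270.8 in Fmr1-KO blood and 670.7, 760.0, 987.7, 379.1 and 342.1 in WT blood. Cerebellum read 702.1, 716.0, 664.4, 728.0 and 586.7 in Fmr1-KO mice and 1171, 653.9, 532.3, 689.5 and 662.5 in WT mice. The tissues overlapped in the Fmr1 experiment, where 3 of 10 mice were higher in blood. The log2 difference there, blood minus cerebellum, was -0.35 (SE 0.20, 95% interval -0.78 to 0.08, limma adjusted p = 0.128), and it was 0.19 (adjusted p = 0.432) when each array was centred on its own median. In the Tsc2 experiment Alas1 read 431.2, 505.8 and 591.7 in Tsc2+/- blood and 322.1, 387.1 and 605.5 in WT blood. The cerebellum of the same mice read 678.3, 789.0 and 828.4 in Tsc2+/- and 632.0, 818.4 and 775.0 in WT. All 6 mice were lower in blood, with a log2 difference of -0.70 (SE 0.16, 1.62-fold, adjusted p = 0.0027).

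Within each mouse the log2 ratio of Alas2 over Alas1 was taken in both tissues. A brightness factor of a probe set that is the same in both tissues cancels in the difference. Blood exceeded cerebellum by 6.83 ± 0.68 (SD, n = 10 mice, 114-fold) in the Fmr1 experiment, with single mice between 5.43 and 7.73. In the Tsc2 experiment the difference was 7.22 ± 0.41 (SD, n = 6 mice, 149-fold), between 6.41 and 7.45. The ratio was higher in blood in 10 of 10 and 6 of 6 mice, with an exact two-sided sign-flip p of 0.002 and 0.031, each the smallest that its number of mice allows. A background or a ceiling of the signal would not cancel. Alas2 was among the bright probe sets in blood, and in cerebellum it went down to 1.16 times the median of olfactory receptor probe sets. The folds are thus of intensity, and their relation to RNA was not tested.

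**Figure D1:**
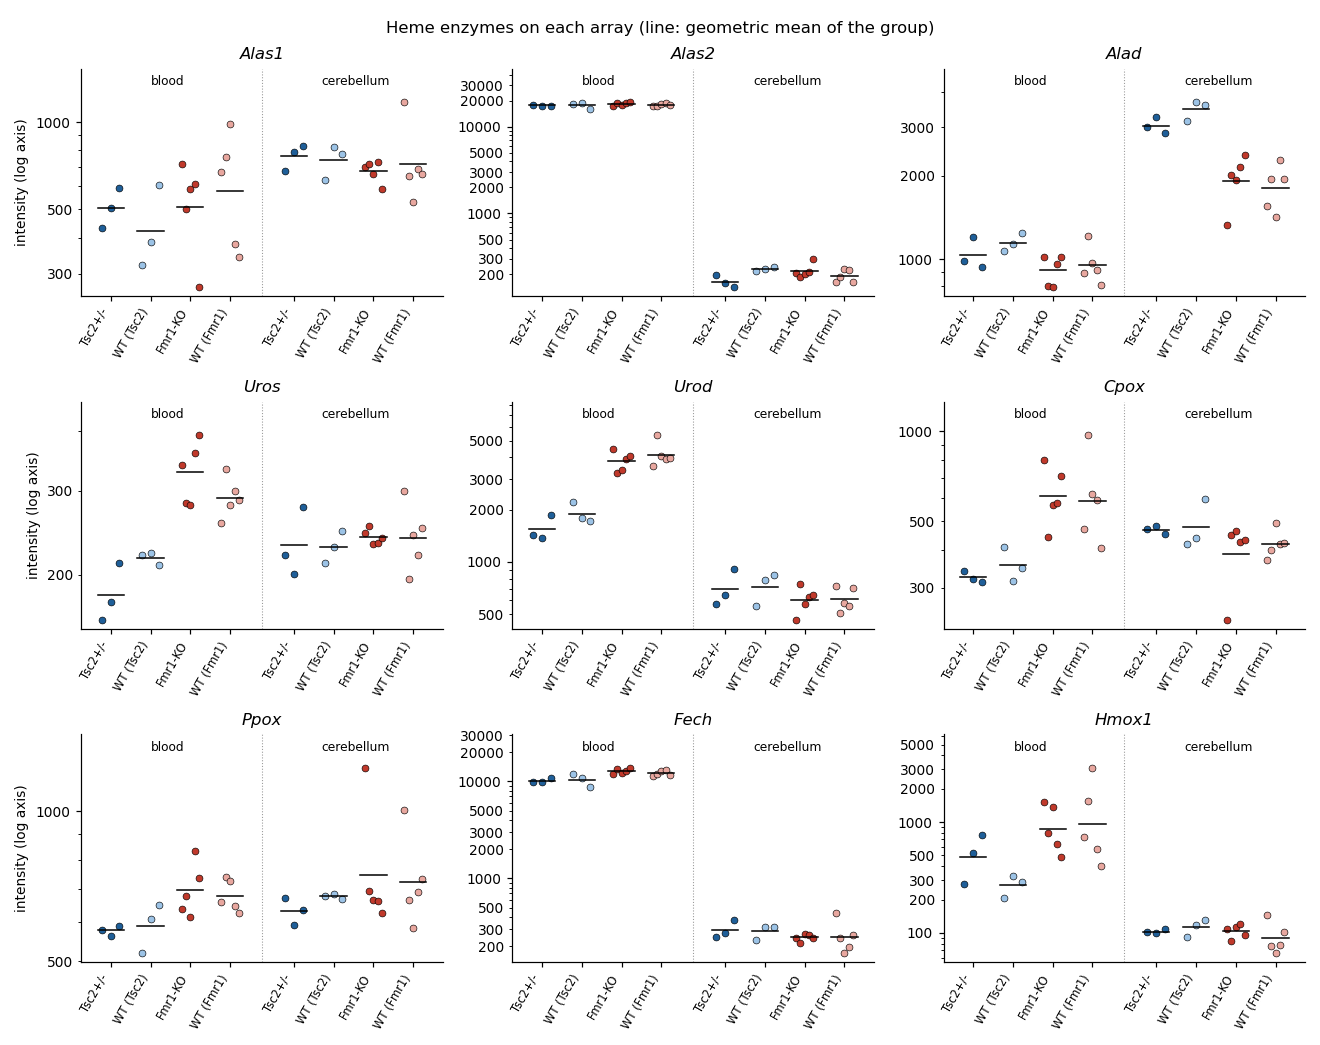
Intensity of each enzyme (vertical axes, log scale) on every array by genotype and tissue, with points for mice and lines for the geometric mean of a group. Alas2 and Fech in blood lie far above cerebellum in every group, and Urod in blood lies at 1370 to 2204 in the Tsc2 experiment and at 3259 to 5380 in the Fmr1 experiment.

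Counted over all members, 6 enzymes were higher and 1 was lower in blood than in cerebellum in the Fmr1 experiment at an adjusted p under 0.05, where 71.8% of all probe sets passed, 20% higher and 51.8% lower. With arrays centred on their median, 36.9% of all probe sets were higher and 31.9% lower, and 7 members were higher and 1 lower. In the Tsc2 experiment 4 members were higher and 3 lower, beside 57.4% of all probe sets, 26.4% higher and 31% lower. There the counts of members were 4 higher and 2 lower after centring, and 4 higher and 5 lower after quantile normalization within each tissue, with 37.4% and 25.7%, and 19% and 45%, of all probe sets higher and lower. Tissue groups did not overlap for 5 members in the Fmr1 experiment, beside 38.6% of all probe sets, and for 7 in the Tsc2 experiment, beside 41.4%. The median difference of the members was 0.55, against -0.52 over all probe sets, in the Fmr1 experiment and -0.16, against -0.03, in the Tsc2 experiment.

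The last enzyme, Fech, followed Alas2. Its intensity was 12010, 13370, 12150, 12970 and 13770 in Fmr1-KO blood and 11460, 12040, 12730, 13240 and 11660 in WT blood. It was 9804, 9862 and 10940 in Tsc2+/- blood and 11950, 10960 and 8685 in WT blood of the Tsc2 experiment. No cerebellum array exceeded 443. Blood was higher by 5.66 on the log2 scale (SE 0.12, 50.6-fold, limma adjusted p = 2.65e-18) in the Fmr1 experiment and by 5.16 (SE 0.13, 35.7-fold, adjusted p = 6.15e-11) in the Tsc2 experiment.

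Urod, which removes carboxyl groups from the ring, was higher in blood in all 16 mice. Its intensity was 4499, 3259, 3389, 3914 and 4061 in Fmr1-KO blood, and its cerebellum arrays in both experiments lay between 465 and 912. Blood exceeded cerebellum by 2.71 (SE 0.10, 6.52-fold, adjusted p = 1.22e-14) in the Fmr1 experiment and by 1.28 (SE 0.16, 2.42-fold, adjusted p = 3e-05) in the Tsc2 experiment. Hmox1, the heme-degrading enzyme, was also higher in blood in all 16 mice, by 3.24 (SE 0.31, adjusted p = 1.56e-08) in the Fmr1 experiment and 1.74 (SE 0.26, adjusted p = 0.000139) in the Tsc2 experiment. In cerebellum it read 66.5 to 146, which was 0.62 to 2.84 times the median of the olfactory receptor probe sets on the same array, so it was not shown to be above background there. With that median as a floor on each cerebellum array, Hmox1 was at least 8.95-fold and at least 3.34-fold higher in blood. The same ratio in cerebellum was 1.16 to 5.28 for Alas2, 1.36 to 7.88 for Fech and 2.62 to 19.38 for Urod. Hmox1 intensity varied 14.76-fold over the blood arrays, from 208 to 3080, and 2.2-fold over the cerebellum arrays.

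Alad ran the other way. Its intensity was 797 to 1250 over the blood arrays and 1330 to 3690 over the cerebellum arrays, and 0 of 16 mice had the higher value in blood. The log2 difference was -1.0 (SE 0.11, 2.00-fold lower in blood, adjusted p = 1.94e-07) in the Fmr1 experiment and -1.57 (SE 0.09, 2.97-fold lower, adjusted p = 4.17e-08) in the Tsc2 experiment. On centred arrays the Fmr1 experiment gave -0.45 (adjusted p = 0.00673) and the Tsc2 experiment -1.37.

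Uros, Cpox and Ppox had small tissue differences, which moved with the scaling. Uros was higher in blood by 0.36 (SE 0.08, 1.29-fold, adjusted p = 0.000821) in the Fmr1 experiment, in 9 of 10 mice, and its difference was -0.21 (SE 0.11, adjusted p = 0.134) in the Tsc2 experiment, with 1 of 6 mice higher in blood. Cpox was higher in blood by 0.55 (SE 0.16, 1.47-fold, adjusted p = 0.00399) in the Fmr1 experiment and lower, at -0.47 (SE 0.11, 1.39-fold, adjusted p = 0.00233) in the Tsc2 experiment. The sign of Cpox thus turned between the experiments, with 8 of 10 mice and 0 of 6 mice higher in blood, and in the Tsc2 experiment its call was lost on centred arrays (-0.28, adjusted p = 0.0798). Ppox differences were -0.10 (SE 0.12, adjusted p = 0.465) and -0.16 (SE 0.08, adjusted p = 0.103), and on centred arrays they were 0.45 (adjusted p = 0.00163) and 0.038 (adjusted p = 0.674). Centring gave 0.91 for Uros and 1.1 for Cpox in the Fmr1 experiment, and -0.0085 (adjusted p = 0.962) for Uros in the Tsc2 experiment.

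**Figure D2:**
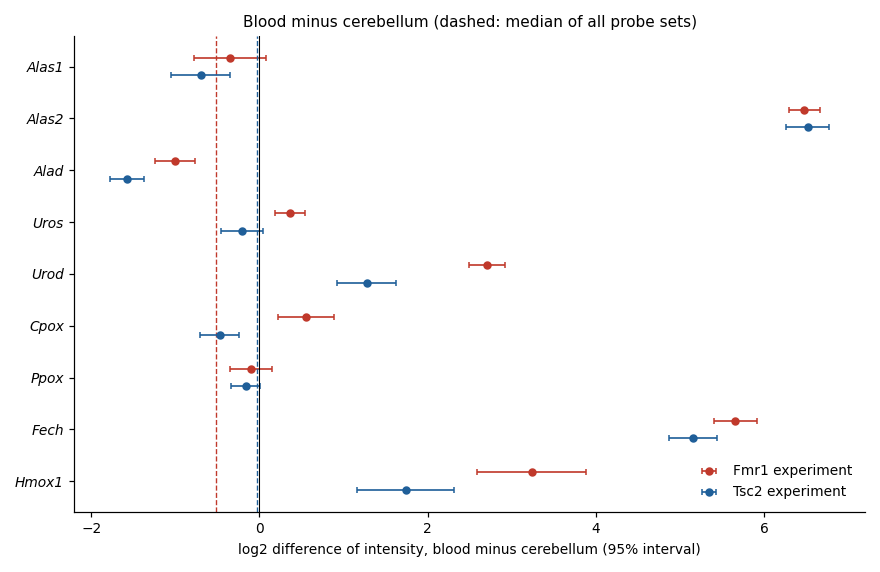
Log2 difference of intensity, blood minus cerebellum, for each enzyme (rows), with the estimate as a point and its 95% interval as a bar, by experiment, and the median of all probe sets as dashed lines. Alas2 and Fech stand at 5.16 to 6.52, Urod and Hmox1 at 1.28 to 3.24, and Alad at -1.57 and -1.0.

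The genes around the pathway were taken from lists, whose counts of higher and lower genes stand beside the 20% and 51.8% of all probe sets in the Fmr1 experiment and the 26.4% and 31% in the Tsc2 experiment. Of 7 other genes of heme use and breakdown, 1 was higher and 6 lower in blood in the Fmr1 experiment, and 1 higher and 3 lower in the Tsc2 experiment. The higher one was Blvrb, a biliverdin reductase, by 4.81 (SE 0.09, 28.1-fold) and 2.98 (SE 0.19, 7.90-fold). Clpx, a mitochondrial chaperone that acts on Alas proteins, was lower in blood, with differences of -1.96 (SE 0.21) and -1.30 (SE 0.13), as was Hccs, which attaches heme to cytochrome c, with -1.11 (SE 0.13) and -0.68 (SE 0.22). On centred arrays 1 of the 7 was higher and 3 lower in the Fmr1 experiment, and 1 higher and 2 lower in the Tsc2 experiment. Hmox2, the constitutive heme oxygenase, differed by -1.10 (SE 0.09) and -0.41 (SE 0.17), and only the first of these passed the test. The inducible and the constitutive oxygenase thus had tissue differences of opposite sign.

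Of 10 heme transporters and carriers, 3 were higher and 5 lower in blood in the Fmr1 experiment and 2 higher and 4 lower in the Tsc2 experiment. Slc48a1, which carries heme out of lysosomes, was higher by 2.45 (SE 0.14) and 2.31 (SE 0.09), while Slc46a1, a folate and heme importer, was lower, at -2.34 (SE 0.21) and -1.89 (SE 0.19). On centred arrays the transporters numbered 6 higher and 2 lower in the Fmr1 experiment and 5 higher and 4 lower in the Tsc2 experiment, so the balance of this list depends on the scaling. Of 12 genes of iron supply, 7 were higher and 4 lower in the Fmr1 experiment, while the Tsc2 experiment had 5 higher and 4 lower. Slc25a37, the mitochondrial iron importer mitoferrin of red cell precursors, was higher in blood by 5.93 (SE 0.08, 61.2-fold) and 5.51 (SE 0.10, 45.7-fold), between the differences of Alas2 and Fech in both experiments. Glrx5, needed for iron-sulfur clusters, was higher by 3.22 (SE 0.13) and 2.26 (SE 0.17), and the ferritin light chain Ftl1 by 2.91 (SE 0.10) and 2.55 (SE 0.12).

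Of 9 regulators of these enzymes, 8 were higher and 1 lower in blood in the Fmr1 experiment and 7 higher and 2 lower in the Tsc2 experiment. The erythroid factors Gata1 and Nfe2 were higher by 4.29 (SE 0.16) and 4.68 (SE 0.13) in the Fmr1 experiment and by 2.98 (SE 0.31) and 3.18 (SE 0.42) in the Tsc2 experiment. Ppargc1a, a coactivator that induces Alas1 in liver, was lower in blood, at -4.08 (SE 0.25) and -4.20 (SE 0.13). Of 6 targets of Nrf2, the oxidative stress factor that also acts on Hmox1, 3 were higher and 2 lower in the Fmr1 experiment, while the Tsc2 experiment had 1 higher and 2 lower. The median difference of the 6 was 0.69 and -0.55. Gclm, a subunit of the glutathione-forming ligase, was higher by 3.26 (SE 0.10) and 2.43 (SE 0.13). Slc7a11 went the other way, with a median intensity of 219 in blood, against 816 in cerebellum. Red cell markers were higher in 10 of 10 genes (Fmr1 experiment) and 9 of 10 (Tsc2 experiment). Leukocyte markers were higher in 7 of 7 genes in both experiments. Macrophage markers were higher in 4 of 6 and lower in 2 in the Fmr1 experiment, and higher in 3 of 6 and lower in 0 in the Tsc2 experiment. How much of any of these differences follows the red cell or the leukocyte content of blood was not tested.

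No enzyme passed the test of genotype in either model. In Fmr1-KO blood against WT blood 0 of 9 members passed an adjusted p under 0.05, as did 0.00844% of all probe sets, and 0 of 9 had an unadjusted p under 0.05, as 3.5% of all did. In Fmr1-KO cerebellum the counts were 0 and 0 of 9, beside 0% and 1.66% of all probe sets. Over both tissues they were again 0 and 0, beside 0.00281% and 2.73%. Hmox1 in cerebellum was read near background, as given above. The widest of the intervals in blood was that of Hmox1, with a difference of -0.13 (SE 0.58, 95% interval -1.43 to 1.16), and the narrowest that of Alas2, with 0.03 (SE 0.07, -0.14 to 0.19).

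Hmox1 intensity was 1506, 793.3, 1370, 635.3 and 486.1 in Fmr1-KO blood, against 733.7, 1540, 3076, 572.1 and 404.9 in WT blood. The WT mice spanned the whole range of the Fmr1-KO mice. Alas1 in the same blood differed by -0.18 (SE 0.36, -0.998 to 0.64), Urod by -0.13 (SE 0.14, -0.44 to 0.19), Fech by 0.07 (SE 0.08) and Uros by 0.18 (SE 0.13, -0.11 to 0.46). In an exact two-sided permutation of the mouse labels the 9 p-values in Fmr1-KO blood lay between 0.16 and 0.85, where 0.0079 is the smallest possible. In Fmr1-KO cerebellum the differences furthest from 0 were those of Hmox1, 0.21 (SE 0.21), and Alas2, 0.19 (SE 0.16), and the other 7 were between -0.11 and 0.09. A 2-fold change of intensity lies outside the 95% interval of every member in Fmr1-KO cerebellum and of 8 of 9 in Fmr1-KO blood. The exception in blood was Hmox1, and the Alas1 interval there ended at -0.998. Hmox1 was near background in cerebellum, where Alas2 and Fech went down to 1.16 and 1.36 times the olfactory receptor median. In blood Alas2 and Fech were in the bright range. Whether a 2-fold change of RNA would move such intensities 2-fold was not tested.

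In Tsc2+/- blood against WT blood, 0 of 9 members passed an adjusted p under 0.05, beside 0% of all probe sets, and 0 of 9 had an unadjusted p under 0.05, beside 2.14%. Over both tissues the counts were 0 and 0 of 9, beside 0% and 2.86% of all probe sets. Hmox1 intensity was 278.2, 523.7 and 757.5 in Tsc2+/- blood, against 208.4, 324.7 and 286.6 in WT blood, so that 1 Tsc2+/- mouse lay among the WT mice. The difference was 0.84 on the log2 scale (SE 0.40, 95% interval -0.17 to 1.84, limma adjusted p = 1.00). The summed intensity of 6 macrophage markers was 5270 to 18200 in Tsc2+/- blood, against 2520 to 5920 in WT blood, and its part in the Hmox1 values was not tested. Of these markers 5 were higher in Tsc2+/- blood, 0 of them at an unadjusted p under 0.01, beside 0.172% of all probe sets higher and 0.127% lower. C1qb, 1 of the 6, ran from 28.7 to 9430 over the blood arrays of both experiments. Urod differed by -0.30 (SE 0.19, -0.78 to 0.18), Uros by -0.26 (SE 0.16), Alas1 by 0.26 (SE 0.28) and Alas2 by -0.01 (SE 0.13).

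In Tsc2+/- cerebellum 0 of 9 members passed the adjusted threshold, beside 0.0253% of all probe sets, and 1 had an unadjusted p under 0.05, beside 4.94%. That 1 was Alas2, whose cerebellar intensities, given above, were all lower in Tsc2+/- than in WT mice. The difference was -0.48 (SE 0.15, 95% interval -0.85 to -0.12, 1.40-fold lower, limma adjusted p = 0.926). Groups did not overlap for 10.3% of all probe sets, and with 3 mice a group the exact permutation p of 0.1 is the smallest possible. The other 8 differences were between -0.20 and 0.05. The red cell marker sums were 2930 to 3370 in Tsc2+/- cerebellum, against 3350 to 3450 in WT cerebellum, and their part in the Alas2 values was not tested. Most of that sum was Sptb, a beta-spectrin gene. Over the arrays of both experiments its median intensity was 2230 in cerebellum, against 2310 in blood, so it hardly set the tissues apart. Without Sptb the sums of the other 9 were 885 to 912 in Tsc2+/- cerebellum, against 886 to 987 in WT cerebellum. Of the 10 markers 5 were higher in Tsc2+/- cerebellum, 2 of them at an unadjusted p under 0.01, and none was lower at that p. Of all probe sets, 0.357% were higher and 0.765% lower at that p.

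**Figure D3:**
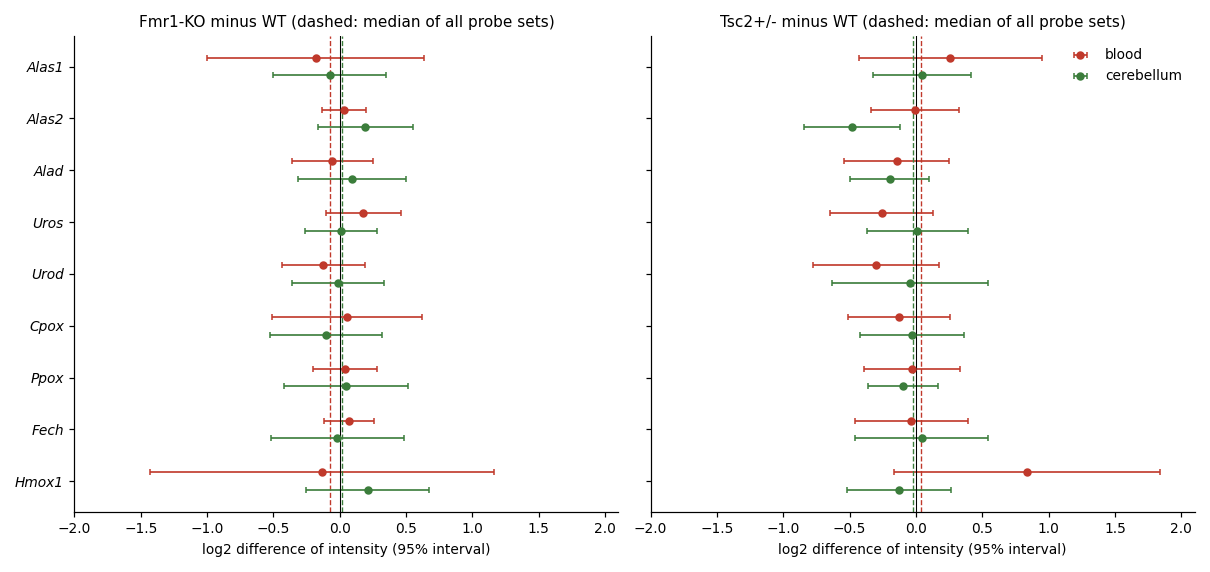
Log2 difference of intensity between mutant and WT mice for each enzyme (rows), with point estimates and 95% intervals for blood and cerebellum, in the Fmr1 experiment at the left and the Tsc2 experiment at the right; dashed lines give the median of all probe sets. Intervals reach 0 in all but 1 case, Alas2 in Tsc2+/- cerebellum at -0.48.

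Whether a genotype difference changed with tissue or model was tested by interaction terms, and 0 of 9 members passed an unadjusted p under 0.01 in any of the 4 tests, beside 0.537% (Fmr1-KO, blood against cerebellum), 0.596% (Tsc2+/-, blood against cerebellum), 0.509% (Tsc2+/- against Fmr1-KO in blood) and 0.487% (the same in cerebellum) of all probe sets. For Alas2 the Tsc2+/- difference in cerebellum minus the Fmr1-KO difference was -0.68 (SE 0.24, limma adjusted p = 1.00). The Tsc2+/- difference of Alas2 was higher in blood than in cerebellum by 0.47 (SE 0.19, limma adjusted p = 1.00).

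The WT mice of the Tsc2 experiment were compared with the WT mice of the Fmr1 experiment, since the models are on different strains. The study also compared them, by its own test. The fit here was made within each tissue, so its counts cannot be set beside the study's count of differing probe sets. Strain and experiment cannot be told apart here. In blood 0 of 9 members passed an adjusted p under 0.05, beside 0.132% of all probe sets, and 1 of 9, Urod, had an unadjusted p under 0.01, beside 12% of all. The median difference of the members was -0.42, against 0.22 over all probe sets, and 8 of 9 were below 0. With all 32 arrays in 1 fit 4 members were called, namely Uros, Urod, Cpox and Hmox1, beside 24.2% of all probe sets.

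Urod intensity was 2204, 1793 and 1722 in WT blood of the Tsc2 experiment, against 3569, 5380, 4076, 3911 and 3978 in WT blood of the Fmr1 experiment. No value was shared, and the mutants followed their own WT mice, with 1421, 1370 and 1871 in Tsc2+/- blood and the Fmr1-KO values given above. The difference was -1.13 (SE 0.17, 95% interval -1.53 to -0.73, 2.19-fold lower, limma adjusted p = 0.0623), and the adjusted p was under 0.05 without WT replicate 1 of the Tsc2 experiment, when 6.54% of all probe sets were called. In the exact permutation test p was 0.018, the smallest possible. For Hmox1 the WT values of the Tsc2 experiment, given above, all lay below those of the Fmr1 experiment, with a difference of -1.83 (SE 0.65, -3.35 to -0.32, adjusted p = 0.117).

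Uros was 220.7, 222.1 and 209.9 in WT blood of the Tsc2 experiment, against 256.4, 333.1, 280.0, 299.3 and 287.5 in WT blood of the Fmr1 experiment. These groups were also apart, with a difference of -0.42 (SE 0.12, adjusted p = 0.0866). The 3 members apart were all lower in the Tsc2 experiment, where 5.77% of all probe sets were. Cpox differed by -0.71 (SE 0.28, adjusted p = 0.148), with overlap. Alas2 differed by -0.02 (SE 0.11, -0.28 to 0.24) and Fech by -0.23 (SE 0.14, -0.56 to 0.11), both in the bright range of narrow spread, and the Fech interval includes the Uros difference. Differences between enzymes were not tested.

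Markers of blood cells also differed between the experiments in WT blood. Summed red cell markers were 24300 to 35400 in WT blood of the Tsc2 experiment, against 44900 to 60700 in WT blood of the Fmr1 experiment, and 7 of 10 were lower at an unadjusted p under 0.01. Of all probe sets, 2.55% were lower and 9.43% higher at that p. After quantile normalization within each tissue the shares were 5.19% and 4.96%. The counts of the lists below stand beside these shares. Summed leukocyte markers (7 genes) were 41000 to 48800, against 26800 to 35000, with Nkg7, of cytotoxic lymphocytes, the brightest. Without it the sums were 20400 to 25700, against 17700 to 22300, and overlapped. Of the 7 genes 4 were higher, 3 of them at an unadjusted p under 0.01, and 3 were below 0, namely S100a8 (-1.39), S100a9 (-1.22) and Lyz2 (-0.25), which are myeloid genes. Of the 9 regulators 5 were lower at that p, namely Gata1 (-1.70), Nfe2 (-1.65), Eif2ak1, the heme-regulated kinase (-0.80), the erythropoietin receptor Epor (-0.68) and Klf1 (-0.54), and these were named after their values were seen. The part of blood cell composition in the Urod, Uros, Cpox and Hmox1 values was not tested.

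In WT cerebellum Alad was the member that stood apart. Its intensity was 3157, 3691 and 3617 in the Tsc2 experiment, against 1562, 1952, 1421, 2287 and 1949 in the Fmr1 experiment. The lowest of the first set lay above the highest of the second, and Tsc2+/- cerebellum, at 2995, 3256 and 2857, was likewise above Fmr1-KO cerebellum, at 1332, 2019, 1931, 2146 and 2374. The difference between WT mice was 0.94 (SE 0.17, 95% interval 0.56 to 1.33, 1.93-fold, limma adjusted p = 0.397, exact permutation p = 0.018). No member passed an adjusted p under 0.05, beside 0.00562% of all probe sets, and 1 of 9 had an unadjusted p under 0.01, beside 1.29%. Groups did not overlap for 4.98% of all probe sets. In blood, Alad differed by 0.27 (SE 0.16, -0.10 to 0.64).

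**Figure D4:**
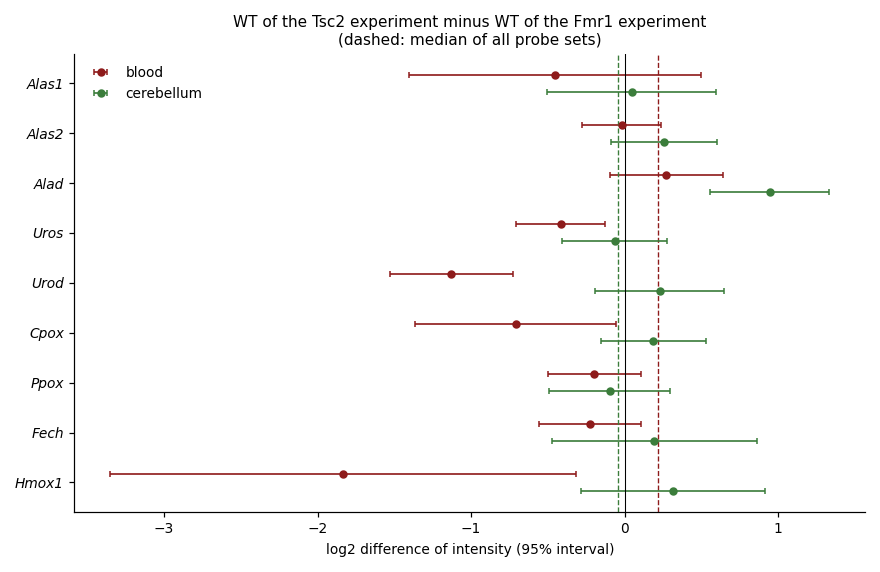
Log2 difference of intensity between WT mice of the Tsc2 experiment and WT mice of the Fmr1 experiment for each enzyme (rows), as points with 95% intervals, by tissue; dashed lines give the median of all probe sets. Urod in blood lies at -1.13 and Hmox1 at -1.83, while Alad in cerebellum lies at 0.94.

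The tissue difference of each member was then compared between the WT mice of the experiments. Urod was the 1 member called, its blood-minus-cerebellum difference being smaller in the Tsc2 experiment, at -1.36 (SE 0.25, 95% interval -1.90 to -0.81, limma adjusted p = 0.0372), and 0.63% of all probe sets were called. With the mouse as a block the adjusted p was 0.19, and it also exceeded 0.05 when any 1 of 6 of the 8 WT mice was left out, namely replicates 2, 3, 4 and 5 of the Fmr1 experiment and 2 and 3 of the Tsc2 experiment. The differences of Hmox1 (-2.15, SE 0.73, adjusted p = 0.13), Cpox (-0.90, SE 0.32, adjusted p = 0.143) and Alad (-0.67, SE 0.23, adjusted p = 0.133) did not pass.

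The members also varied from mouse to mouse within a group. The pooled within-group SD on the log2 scale was 0.857 for Hmox1 and 0.538 for Alas1 in blood, against 0.306 and 0.275 in cerebellum. For Alas2 it was 0.066 in blood, against 0.23 in cerebellum, and for Fech 0.126, against 0.349. The small blood SDs of Alas2 and Fech are those of bright probe sets, as given above, while Alas1 and Hmox1 had the largest blood SDs of the 9 members, against a median of 0.365 over all probe sets.

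Deviations from the group mean over the 16 blood arrays were set against each other as a description, since arrays share a normalization and a blood draw's mix of cells. Hmox1 and Alas1 deviated together (Pearson r = 0.82, Spearman rho = 0.76, and r = 0.76 without the 2 arrays farthest from the median of Alas1). Fech and Alas2 did so as well (r = 0.84, rho = 0.79, and 0.7 without 2 arrays), as did Urod and Uros (r = 0.79, rho = 0.82, and 0.82). Alas1 and Alas2 deviated in opposite directions (r = -0.62, rho = -0.69, and -0.66). Over the 16 cerebellum arrays Alas1 and Hmox1 had r = 0.82, which was 0.47 without 2 arrays.

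**Figure D5:**
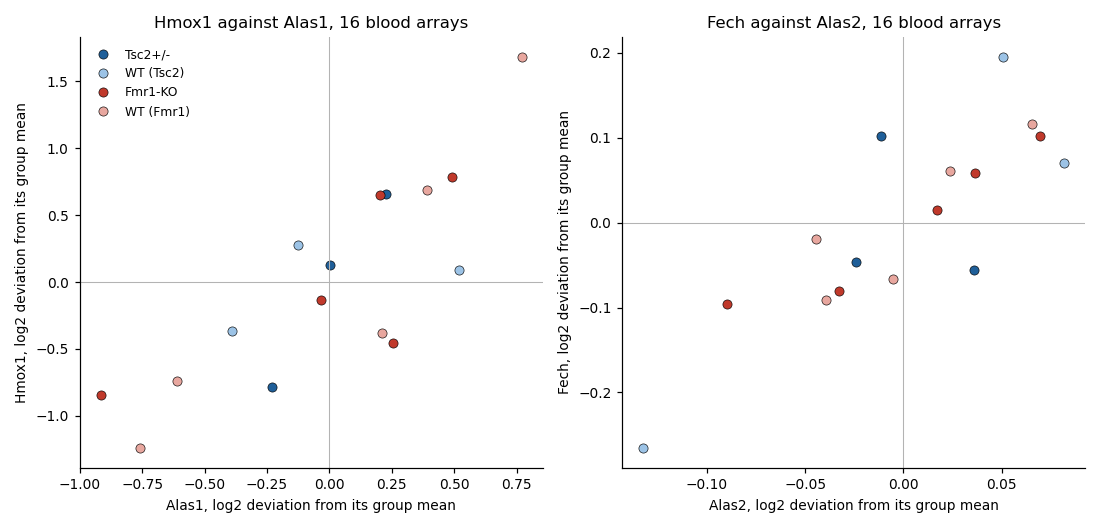
Log2 deviation from the group mean on the 16 blood arrays, with Hmox1 (vertical) against Alas1 (horizontal) at the left and Fech against Alas2 at the right; each point is 1 mouse, coloured by group. The pairs have r of 0.82 and 0.84.

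The genes whose deviations were most like those of 3 members were named as a description over 16 arrays. For Alas2 in blood, among 13821 genes, they were Ube2l6 (r = 0.96), Ftl1 (0.91), Bnip3l (0.91), Chrna2 (0.89) and Tent5c (0.88). For Hmox1 in blood they were Dmxl2 (0.88), Anxa4 (0.87), Gstk1 (0.86), Nampt (0.85) and Rhoc (0.85). For Alas1 in cerebellum, among 15605 genes, they were Tmem178b (0.97), Ankrd13c (0.97), St6galnac6 (0.96), Chst12 (0.96) and Gpank1 (0.96). Without the 2 arrays farthest from the median of the member, r was 0.77 to 0.92 for Alas2, 0.71 to 0.87 for Hmox1 and 0.85 to 0.92 for Alas1. Ftl1 is the light chain of the iron store ferritin, and Bnip3l drives the clearing of mitochondria from maturing red cells. Ftl1, at 13500 to 16500 in blood, was itself a bright probe set of narrow spread (SD 0.069).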

How the data were processed

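RNA was measured on 32 arrays, and the authors deposited 1 linear intensity for each probe set and array, made by quantile normalization of probes across the whole set of arrays and then PLIER summaries, with Affymetrix Power Tools named in the submitters' processing notes. A genome build is not given in the sources used here. The number of arrays limits the precision. Log2 of the intensities was taken without an offset. In R 4.3.3, limma 3.58.1 (lmFit, eBayes) fitted tissue and genotype over both tissues, genotype or experiment within a tissue, and interaction terms, with p-values adjusted by Benjamini-Hochberg over 35556 probe sets. Calls were made at an adjusted p under 0.05, and an unadjusted p under 0.01 is given beside them. Single members were also tested by exact two-sided permutation of mouse labels. The annotation gave 1 symbol for 21789 probe sets, several for 1621 and none for 12146, and 21698 of the 21789 symbols were brought up to date through the gene number. All 9 members were named; of other lists, up to 4 genes with the largest tissue difference; and for likeness the 5 highest correlations among genes of mean intensity over 100. The members and lists were chosen with earlier results of these data known. The fit was tested on simulated data. Alternatives were an offset of 16, arrays centred on their median, quantile normalization within tissue, a filter on mean log2 intensity under 5, other variance models, the methods' t-test, 1 fit of all arrays, a block for mouse or replicate number, and leaving out each mouse; those of the interaction terms, the background floor for Hmox1, the SDs of bright probe sets and the marker sums without their brightest gene were chosen after seeing the data. The 2 arrays of a number come from the same mouse, which pairs the tissues, while a number shared across genotypes pairs nothing in the labels. Within-mouse correlation of residuals was 0.00817 in the Fmr1 and 0.0607 in the Tsc2 experiment. Globins and other listed genes without a single-symbol probe set were not analysed here. Fech and Hmox1 promoters are not shown.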

Additional observations from a re-analysis of the deposited data

Results flagged for a closer look

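Of 36 sets of values (9 enzymes in 4 groups of 5 arrays), 3 held an array far from the other 4, where chance gives about 1.8. In Fmr1-KO cerebellum replicate 5, Alas2 intensity was 301.9, against 186.6 to 210.0 in the other 4 mice (a gap of 0.754 of the group's log2 range). In Fmr1-KO cerebellum replicate 1, Cpox was 235.3, against 427.9 to 463.3 (0.883 of the range), and Ppox was 1221, against 625.7 to 691.9 (0.85 of the range). Replicate 1 is the array with the highest median and, among cerebellum arrays, the lowest correlation with its group, and the part of this in the Cpox and Ppox values was not tested.

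The tissue difference of Urod in WT mice was smaller in the Tsc2 experiment than in the Fmr1 experiment (-1.36 on the log2 scale, limma adjusted p = 0.0372), by a test of the difference itself. With the mouse, which gave both tissues, as a block the adjusted p was 0.19, and the call was also lost when any 1 of 6 of the 8 mice was left out. Strain and experiment cannot be told apart.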

How the results depend on the processing

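Members called between the tissues numbered 7 to 8 in the Fmr1 and 6 to 9 in the Tsc2 experiment under the alternatives, and 0 in each of the 6 genotype comparisons under every alternative run. Centring arrays on their median turned the tissue difference of Alas1 to 0.19 and of Ppox to 0.45 in the Fmr1 experiment and of Ppox to 0.038 in the Tsc2 experiment. Quantile normalization within tissue turned Ppox to 0.0074 in the Fmr1 experiment. Alas1 was called in the Fmr1 experiment without WT replicate 3 (-0.49, adjusted p = 0.0363). In WT blood the 0 members called, beside 0.132% of all probe sets, became 1 (Urod) with 16 added (7.55% of all), with the filter on dim probe sets (9.42%) or with a variance trend (12.6%), 4 with all 32 arrays in 1 fit (24.2%), and 0 to 1 when a mouse was left out (0.0197% to 6.54%). For the tissue difference between WT mice, the 1 member called became 0 with the mouse as replicate block (Urod -1.36, adjusted p = 0.19) and 0 to 1 without a mouse (Urod -1.65 to -1.17). The Alas2 over Alas1 difference in the Tsc2 experiment was 7.17 to 7.38 without a mouse, with p = 0.062, the smallest exact p that 5 mice allow. With the replicate number as a block, Urod in WT blood was -1.17 (adjusted p = 0.402), and tissue calls numbered 7 with the mouse as a block in both experiments. Without Tsc2+/- replicate 1, Hmox1 in blood and Alas2 in cerebellum had an unadjusted p under 0.01. Each member has 1 probe set, so the mean over probe sets was not run. The number of arrays limits the precision of every value.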

Other observations

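Over the 16 blood arrays the genes whose deviations from the group mean were most like those of Urod, chosen after its values were seen, were Mettl27 (r = 0.95), Trak2 (0.91), Ifrd2 (0.91), Txnrd2 (0.91) and 1700037H04Rik (0.9), among 13821 genes. Without the 2 arrays farthest from the median of Urod, r was 0.82 to 0.91. Txnrd2 is the mitochondrial thioredoxin reductase. In WT blood, 2 of 6 Nrf2 targets were lower in the Tsc2 than in the Fmr1 experiment at an unadjusted p under 0.01. These were Nqo1 (-1.72 on the log2 scale) and Gclm (-0.61), while 3 of the 6 were above 0. Blvrb (-1.38) was also lower at that p. In its list, the 7 other genes of heme use and breakdown, 5 were above 0 and the median was 0.61. Of all probe sets, 2.55% were lower and 9.43% higher at that p. Nqo1, Gclm and Blvrb were named after their values were seen. In cerebellum, where Hmox1 was near background, Fech and Hmox1 deviated together over the 16 arrays (r = 0.91, rho = 0.86, and r = 0.74 without 2 arrays), and Cpox and Ppox in opposite directions (r = -0.84, rho = -0.69, and -0.73).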
